A study of Mus musculus with 6 samples.

Results

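Collagen and laminin genes were followed through mouse neural tube organoids by single-cell RNA sequencing. The members are the gene symbols listed in both deposited tables that are written as a collagen chain (Col, a number, a, a number) or as a laminin chain (Lama, Lamb or Lamc and a digit). The rule finds 49 genes, 39 collagens and 10 laminins, of 17296 symbols the tables share, and it uses no measured value. Neural tube organoids are hollow neuroepithelial structures, here grown in drops of Matrigel from a mouse embryonic stem cell line with a Sox1 reporter (eGFP) and a Brachyury reporter (mCherry). Every library comes from that line. Every culture received activin-A together with bFGF (basic fibroblast growth factor) up to day 3 and plain N2B27 medium from then on. The groups are non-elongated organoids at day 6 (1 library), elongated organoids at day 6 (2 libraries from different batches, replicates 1 and 2), and elongated organoids at day 7, day 8 and day 10 (1 library each). Organoids kept past day 6 were freed from the gel with collagenase IV and dispase and moved to fresh Matrigel. In any comparison of a later day with day 6, time in culture and this transfer cannot be told apart. Each library pools organoids, so no value stands for a single organoid.

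Collagens are triple helices of 3 alpha chains, and laminins are cross-shaped trimers of 1 alpha, 1 beta and 1 gamma chain. Laminin and the network-forming collagen IV are the 2 self-assembling sheets of the basement membrane, the thin matrix on which an epithelium such as the neural tube rests. Nidogens and perlecan join the sheets, and integrins and dystroglycan bind them to the cell. Matrigel is itself a basement membrane extract rich in laminin and collagen IV protein. The counts given here are RNA of the organoid cells, and the protein of the gel does not enter them.

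The libraries held 2076 to 3677 cells and 74072752 to 152742819 UMIs (unique molecular identifiers, each standing for 1 captured RNA molecule). Median UMIs per cell ran from 22053 at day 10 to 59014 in elongated day 6 replicate 2. Elongated replicate 1 and the non-elongated library are in 1 table, whose cells passed narrower limits of detected genes than those of the other table. Levels are given as CPM, the UMIs of a gene scaled to a common total over the pooled cells of a library, with TMM scaling, which corrects for differences in composition between libraries. The 3 prime kit counts molecule ends and no length was applied, so levels are compared within a gene and not between genes. Of the 49 members, 44 passed the filter on low counts. The other 5 (Col6a5, Col8a1, Col19a1, Lama3 and Lamc3) had at most 10 UMIs in a library. The 13 members that reached 10 CPM in a library were Col4a1, Col4a2, Col4a5, Col18a1, Lama5, Lamb1, Lamc1, Col2a1, Col1a2, Col5a1, Col11a1, Col14a1 and Col23a1. Of the remaining tested members, 20 were neither called in a comparison nor reached that level, and they lay between 0.03002 and 8.57 CPM.

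Cell classes are those the authors deposited. At day 10 the class named migratory cranial neural crest held Sox10 at 378 CPM and Foxd3 at 91.0 CPM, which are genes of migrating crest. The classes named pre-EMT cranial and pre-EMT vagal/trunk neural crest had Foxd3 at 0 CPM, and Sox10 was at 0.127 CPM in the first and at 0 CPM in the second. The epithelial keratin Krt18 was at 59.9 CPM and 28.4 CPM in those pre-EMT classes, against 2.75 CPM in the mid/hindbrain class. These markers go against a crest identity of the pre-EMT classes, whose names are kept here only as the authors' labels. Values for neural crest as a group cover all cells the authors gave that name, the pre-EMT classes included. Endothelial markers summed to 1.25 to 3.83 CPM per library over the 4 measured of 7 listed, and cartilage markers to 0.706 to 4.81 CPM over 5. Markers of parietal and visceral endoderm, tissues that secrete much basement membrane, summed to 6.39 to 17.5 CPM over 7 measured of 9. Neuron markers summed to 121 to 179 CPM at days 6 and 7, to 705 CPM at day 8 and to 2463 CPM at day 10.

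The collagen IV genes lie as head-to-head pairs, and their start regions are shown because the members of each pair are compared below. Col4a1 (chr8:11198423-11312826, minus strand) and Col4a2 (chr8:11312805-11449287, plus strand) have start bases 21 bases apart, and their windows of 250 bases before to 50 bases after the start share 78 bases. Col4a6 (chrX:141165403-141474076, minus strand) and Col4a5 (chrX:141475385-141689234, plus strand) have their RefSeq start bases at 141474076 and 141475419, 1343 bases apart. Gene positions are from GENCODE M21 on GRCm38 (mm10), and the windows are from RefSeq, build GRCm38.p6, printed 5′ to 3′ on the strand of the gene. Capitals mark matches on either strand to CCAAT, the CCAAT box, or to GGGCGG, the GC box. The TATA box, searched as TATAAA on both strands, had no match in these 4 windows. Within a window no match overlaps another. The GC box of the Col4a1 window and the last GC box of the Col4a2 window are the same site, which lies in the shared bases.
Col4a1 (chr8:11312777-11313076, minus strand): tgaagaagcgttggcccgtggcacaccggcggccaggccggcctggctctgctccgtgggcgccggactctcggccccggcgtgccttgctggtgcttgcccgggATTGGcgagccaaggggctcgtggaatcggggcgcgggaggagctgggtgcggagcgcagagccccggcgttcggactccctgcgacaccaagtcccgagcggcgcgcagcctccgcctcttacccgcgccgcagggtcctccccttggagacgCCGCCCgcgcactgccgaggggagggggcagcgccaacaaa
Col4a2 (chr8:11312555-11312854, plus strand): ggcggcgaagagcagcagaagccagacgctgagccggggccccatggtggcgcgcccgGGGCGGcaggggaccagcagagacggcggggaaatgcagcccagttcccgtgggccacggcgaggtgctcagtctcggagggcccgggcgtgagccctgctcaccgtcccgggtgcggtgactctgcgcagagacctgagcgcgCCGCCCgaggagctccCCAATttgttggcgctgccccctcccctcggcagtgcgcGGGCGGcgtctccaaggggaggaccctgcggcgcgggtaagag
Col4a5 (chrX:141475169-141475468, plus strand): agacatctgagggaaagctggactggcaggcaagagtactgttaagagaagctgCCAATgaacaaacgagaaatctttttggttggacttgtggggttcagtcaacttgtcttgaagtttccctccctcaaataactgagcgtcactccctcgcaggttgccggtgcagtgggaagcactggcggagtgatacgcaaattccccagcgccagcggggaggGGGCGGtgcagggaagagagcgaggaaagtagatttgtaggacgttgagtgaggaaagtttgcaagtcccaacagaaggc
Col4a6 (chrX:141474027-141474326, minus strand): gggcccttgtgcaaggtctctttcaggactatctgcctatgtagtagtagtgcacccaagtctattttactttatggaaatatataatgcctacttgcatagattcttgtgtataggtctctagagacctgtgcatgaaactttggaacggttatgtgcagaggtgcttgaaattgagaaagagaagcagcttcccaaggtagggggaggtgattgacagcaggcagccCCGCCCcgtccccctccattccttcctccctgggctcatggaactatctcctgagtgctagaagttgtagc
The Col4a1 and Col4a2 windows held 74.0% and 73.7% G and C, and those of Col4a5 and Col4a6 52.7% and 48.3%, against a median of 52.7% over 32851 RefSeq windows of that length. CCAAT was in the windows of Col4a1, Col4a2 and Col4a5 and not in that of Col4a6, and it is in 37.4% of all windows. GGGCGG was in all 4, with 3 matches in Col4a2, the last of them the site also counted for Col4a1. It is in 35.7% of all windows. Over the 39 windows of the 35 members found in the RefSeq table, 13 held CCAAT, 23 held GGGCGG and 4 held TATAAA, a motif found in 13.6% of all windows. These are matches of letters and no evidence of binding.

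Col4a1 and Col4a2 encode the chains of the most widespread collagen IV molecule. Col4a1 stood at 28.2 CPM in non-elongated organoids, 28.7 and 28.3 CPM in the elongated day 6 duplicates, 23.5 CPM at day 7, 8.20 CPM at day 8 and 17.0 CPM at day 10. The day 6 libraries lay within 1 CPM of each other, and day 8 was the lowest. Against day 6, Col4a1 fell by 1.80 (SE 0.32) on the log2 scale at day 8 (edgeR, adjusted p = 0.0112). The difference at day 10 was -0.74 (SE 0.30, adjusted p = 0.108). Col4a2 was at 10.1 CPM in non-elongated organoids, 12.3 and 9.35 CPM in the duplicates, 20.8 CPM at day 7, 10.6 CPM at day 8 and 15.6 CPM at day 10. No comparison called Col4a2, whose day 7 difference was 0.94 (SE 0.33, edgeR adjusted p = 0.188).

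The pair thus shifted in proportion. Col4a1 made up 73.6% of the UMIs of both genes in non-elongated organoids (exact 95% binomial interval 71.8 to 75.2), 69.997% and 75.2% in the elongated day 6 duplicates, 53.1% at day 7, 43.6% at day 8 (41.5 to 45.7) and 52.2% at day 10. The 3 day 6 libraries all lay above the 3 later ones. Neural progenitors alone gave 66.8% to 75.2% at day 6 and 42.7% to 52.7% later, so the shift was also present inside that group of classes. Within the mid/hindbrain class the share was 75.4% at day 6, 52.7% at day 7, 42.8% at day 8 and 46.6% at day 10. Not every later class lay below the day 6 classes. The pre-EMT vagal/trunk class stood at 59.7% at day 8 (50.9 to 68.1) and 66.7% at day 10 (62.3 to 70.8), and dP2/3 at 65.6% at day 7 (46.8 to 81.4). These reach the 65.6% of spinal cord and 66.3% of hindbrain in elongated replicate 1 at day 6. The intervals here and below cover counting error only. Shares were compared after the levels had been seen, and no test was made of them.

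**Figure D1:**
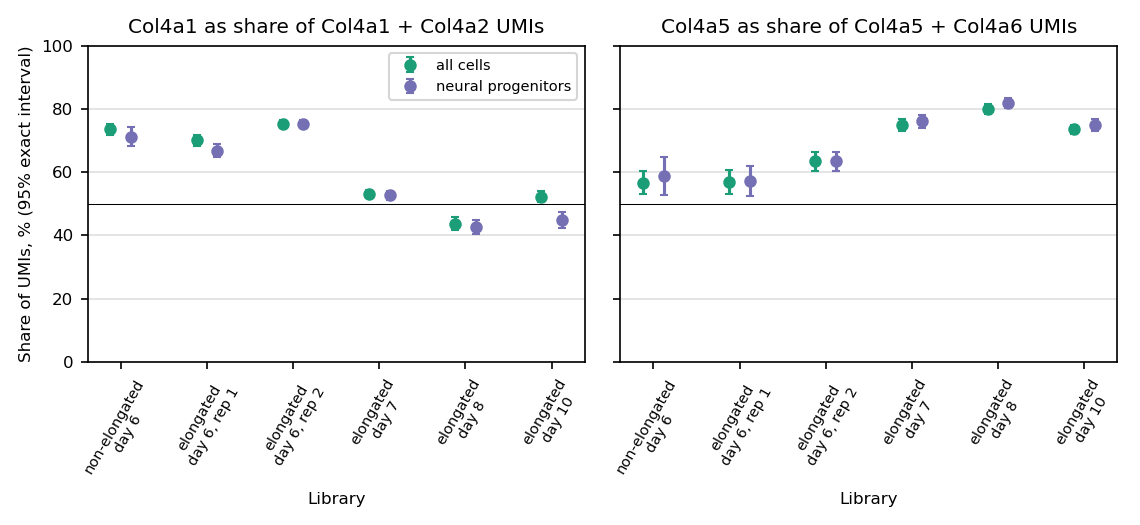
Share of the first gene in the UMIs of each collagen IV pair (vertical axis, percent, bars are exact 95% binomial intervals) in the 6 libraries (horizontal axis), over all cells and over neural progenitors. The left panel shows Col4a1 between 69.997% and 75.2% at day 6 and at 43.6% to 53.1% later over all cells. The right panel shows Col4a5 over all cells at 56.6% in non-elongated organoids and 56.9% and 63.4% in the elongated day 6 duplicates. It was at 74.9% at day 7, 80.1% at day 8 and 73.5% at day 10.

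Col4a5 and Col4a6 encode chains of another collagen IV molecule, found in a restricted set of basement membranes. Col4a5 was at 6.03 CPM in non-elongated organoids, 5.18 and 4.83 CPM in the elongated day 6 duplicates, 11.3 CPM at day 7, 17.2 CPM at day 8 and 25.0 CPM at day 10. Its order followed the day of culture in the elongated libraries. Col4a5 rose at day 8 by 1.78 (SE 0.31, edgeR adjusted p = 0.0104) and at day 10 by 2.32 (SE 0.31, adjusted p = 0.00210). The slope over day was 0.59 log2 units per day (SE 0.10, adjusted p = 0.0155). Col4a6 was at 4.62 CPM in non-elongated organoids, 3.92 and 2.80 CPM in the duplicates, 3.79 CPM at day 7, 4.30 CPM at day 8 and 9.02 CPM at day 10. Its day 10 library stood above all others, with a rise of 1.43 (SE 0.37, edgeR adjusted p = 0.0284). Col4a4, the last network member tested, stayed between 0.274 and 0.801 CPM.

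Among the day 10 classes, Col4a1, Col4a2, Col4a5 and Col4a6 were highest in the pre-EMT classes and Col4a4 in dorsal progenitor dP2/3 (3.07 CPM). In the vagal/trunk class (105 cells) Col4a1 was at 107 CPM and Col4a5 at 108 CPM, and in the cranial class (255 cells) they were at 77.1 and 60.5 CPM. Col4a2 was at 55.4 CPM in the cranial and 53.5 CPM in the vagal/trunk class. Mid/hindbrain progenitors of that library had 17.2 CPM of Col4a1, 19.7 CPM of Col4a2 and 32.0 CPM of Col4a5. Dorsal interneurons held from 0.277 to 1.00 CPM of Col4a1 and from 1.04 to 2.78 CPM of Col4a2, and they made up 32.0% of the cells at day 10 (8.15% at day 8). Fewer cells of a type and less RNA per cell cannot be told apart in the pooled libraries, here and below. Within neural progenitors alone, Col4a1 fell at day 8 by 1.85 and at day 10 by 1.14 (edgeR adjusted p = 0.0150 and 0.0471), and Col4a5 rose by 1.72 and 2.56 (adjusted p = 0.0187 and 0.00285). Mid/hindbrain exceeded spinal cord for Col4a1 and Col4a2 in 4 of 4 libraries of that table, and for Col4a5 in 1 of 4.

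Col18a1 (chr10:77052178-77166548) encodes collagen XVIII, a basement membrane collagen that carries heparan sulfate and from which endostatin is cleaved. Its level was 108 CPM in non-elongated organoids, 91.9 and 84.3 CPM in the elongated day 6 duplicates, 39.9 CPM at day 7, 32.9 CPM at day 8 and 28.0 CPM at day 10. All day 6 libraries lay above all later ones. Col18a1 fell at day 8 by 1.42 (SE 0.27, edgeR adjusted p = 0.0153) and at day 10 by 1.65 (SE 0.28, adjusted p = 0.00556), and its slope was -0.42 per day (SE 0.10, adjusted p = 0.0319). The highest class level was 186 CPM in surface ectoderm of non-elongated organoids (164 cells), followed by 147 CPM in the pre-EMT cranial class of elongated replicate 2 (52 cells). Dorsal interneurons at day 10 held 1.00 to 1.73 CPM. Within neural progenitors it still fell at day 8 and day 10, by 1.33 and 1.42 (edgeR adjusted p = 0.0253 and 0.0142).

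**Figure D2:**
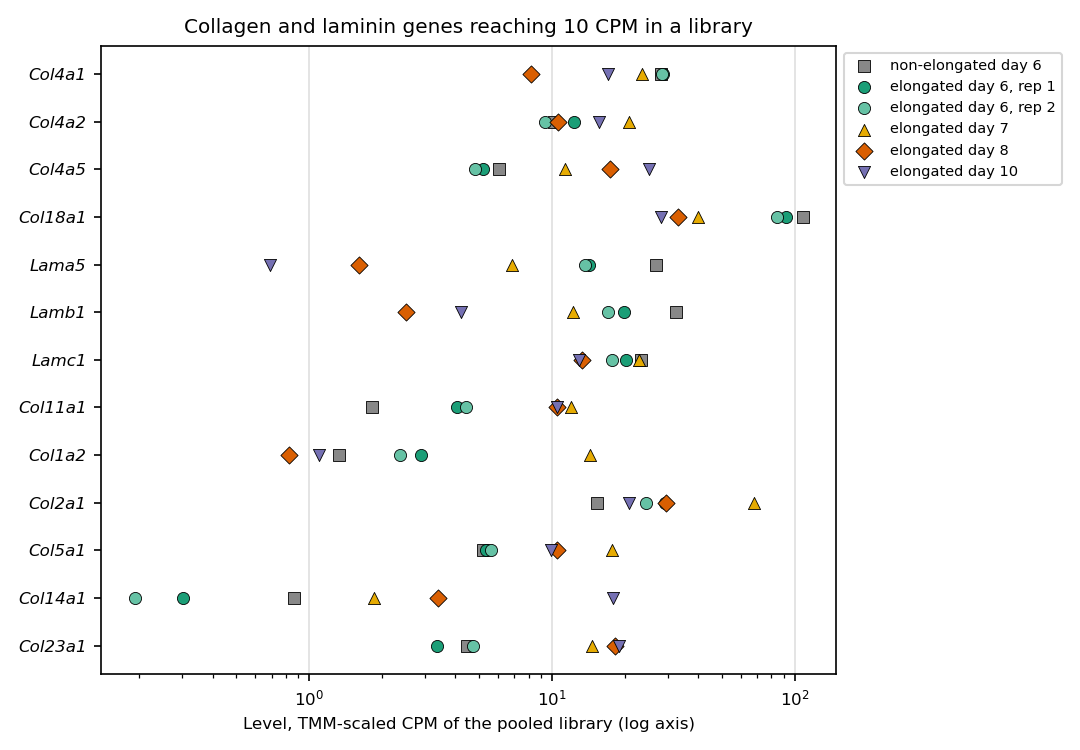
Levels of the 13 members that reached 10 CPM in a library (horizontal log axis, TMM-scaled CPM of the pooled library), 1 symbol per library. Col18a1 and Lama5 lie to the right in the 3 day 6 libraries and to the left later, Col4a5 and Col23a1 show the opposite order, and Col1a2 and Col2a1 stand apart in the day 7 library at 14.3 and 67.5 CPM.

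Among the laminin alpha chains, Lama5 was the one that fell. Lama5 (chr2:180176373-180225859) encodes the alpha chain of the most widespread laminins of epithelial basement membranes. It was at 26.7 CPM in non-elongated organoids, 14.2 and 13.6 CPM in the elongated day 6 duplicates, 6.82 CPM at day 7, 1.61 CPM at day 8 and 0.690 CPM (69 UMIs) at day 10. The order of the elongated libraries followed the day of culture without exception. Lama5 fell at day 8 by 3.11 (SE 0.38, edgeR adjusted p = 0.00281) and at day 10 by 4.33 (SE 0.42, adjusted p = 0.000578), with a slope of -1.13 per day (SE 0.13, adjusted p = 0.00891). Neural progenitors alone gave -3.21 and -4.14 (edgeR adjusted p = 0.00483 and 0.00148). At day 10 no class of at least 50 cells exceeded 2.02 CPM, and migratory crest (56 cells) held 0 UMIs.

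Lama1, the alpha chain of the laminin most abundant in Matrigel and in early embryonic basement membranes, did not pass the test in any comparison. It is named here after its values were seen, because it is the other major alpha chain. Its levels were 3.46 CPM in non-elongated organoids, 4.79 and 4.66 CPM in the duplicates, 7.75 CPM at day 7, 5.43 CPM at day 8 and 8.57 CPM at day 10. In the non-elongated library the alpha chains were split between classes. Surface ectoderm had 45.2 CPM of Lama5 and 0.370 CPM of Lama1, with Poisson intervals of 39.7 to 51.2 and 0.0449 to 1.34. Mesenchyme (143 cells) had 6.24 CPM of Lama5 and 15.6 CPM of Lama1. Mesenchyme and early mesoderm markers summed to 708 CPM in the mesenchyme class (11 measured of 11, none at 0). They summed to 66.2 to 108 CPM in the other groups of classes in that library. The mesenchyme class also carried markers listed here for other tissues. Its parietal and visceral endoderm markers summed to 113 CPM (7 measured of 9, none at 0), against 8.59 to 15.6 CPM in the other groups of classes in that library, and its endothelial markers to 35.0 CPM (4 measured of 7, none at 0), against 1.30 to 2.78 CPM. Their part in the laminin and collagen values of that class was not tested. Across the 40 pairs of class and library with at least 50 cells, log2(CPM + 1) of Lama1 and Lama5 had Pearson r = -0.25 and Spearman rho = -0.20. The corresponding values were 0.74 and 0.71 for Lama5 with Lamb1, 0.84 and 0.73 for Col4a1 with Col4a2, and 0.87 and 0.75 for Col4a5 with Col4a6. These are descriptions only, since classes of a library share its depth and preparation.

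Lama4, an alpha chain typical of vessels and mesenchymal tissues, was at 0.375 CPM in non-elongated organoids, 0.246 and 0.262 CPM in the duplicates, 1.31 CPM at day 7, 0.521 CPM at day 8 and 2.12 CPM at day 10. It rose at day 10 by 3.05 (SE 0.53, edgeR adjusted p = 0.00661). In that library 115 of its 212 UMIs lay in the 56 cells of migratory cranial crest, where it reached 56.6 CPM. At day 7, in contrast, 145 of 177 UMIs lay in the mid/hindbrain class, at 1.33 CPM. In the neural progenitor classes alone the day 10 difference was 2.16 and was not called. That fit leaves out the neuron classes and those the authors named neural crest. It also leaves out epiblast, surface ectoderm and mesenchyme of elongated day 6 replicate 1, where 9 of 18 Lama4 UMIs lay in caudal epiblast.

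Of the beta chains, Lamb1 (chr12:31265234-31329644), the main beta chain of early basement membranes, was at 32.4 CPM in non-elongated organoids, 19.7 and 16.9 CPM in the elongated day 6 duplicates, 12.2 CPM at day 7, 2.51 CPM at day 8 and 4.22 CPM at day 10. It fell at day 8 by 2.87 (SE 0.38, edgeR adjusted p = 0.00361) and at day 10 by 2.12 (SE 0.36, adjusted p = 0.00591). In neural progenitors the level went from 15.2 and 15.0 CPM at day 6 to 11.2, 1.86 and 1.71 CPM at days 7, 8 and 10, and the day 10 difference was -3.32 (edgeR adjusted p = 0.00236). The highest class levels were 47.0 CPM in surface ectoderm of non-elongated organoids and 46.4 CPM in the pre-EMT cranial class of elongated replicate 2. The authors' neural crest classes together held 35.9 CPM in elongated day 6 replicate 2, 24.7 CPM at day 7, 13.1 CPM at day 8 and 24.6 CPM at day 10. At day 10 these were 44.3 CPM of Lamb1 in the migratory, 33.0 CPM in the pre-EMT vagal/trunk and 16.3 CPM in the pre-EMT cranial class. Lamb2 was between 2.82 and 6.14 CPM in all libraries and was called in no comparison.

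Lamc1, the common gamma chain, was at 23.2 CPM in non-elongated organoids, 20.1 and 17.7 CPM in the duplicates, 22.8 CPM at day 7, 13.2 CPM at day 8 and 12.8 CPM at day 10. Its libraries overlapped in level until day 7, and no comparison called it (edgeR adjusted p = 0.324 at day 8 and 0.227 at day 10). Its highest class levels were 40.1 CPM at day 8 and 39.4 CPM at day 10, both in the pre-EMT cranial class. The authors' neural crest classes together stood at 35.2 CPM at day 10, and neurons kept 6.67 CPM of it while Lamb1 was at 0.643 CPM in them. The laminins as a whole gave 0 calls of 8 tested at day 7, 2 at day 8, both lower (25.0%, against 13.4% of all genes), and 3 at day 10, 1 higher and 2 lower (37.5% against 26.4%).

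**Figure D3:**
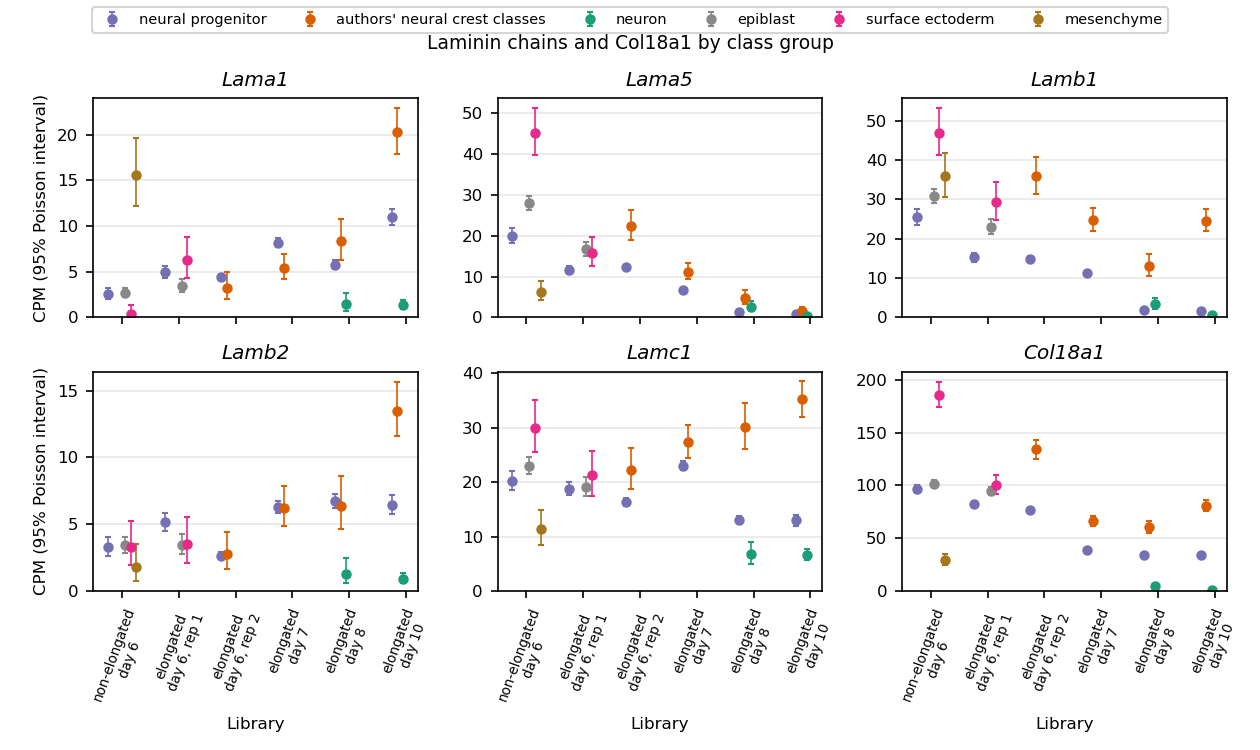
Levels of 5 laminin chains and Col18a1 (vertical axes from 0, CPM without TMM scaling, bars are 95% Poisson intervals) by group of classes in the 6 libraries (horizontal axis), for groups of at least 50 cells. Lama5 and Lamb1 in neural progenitors drop to 0.764 and 1.71 CPM at day 10, whereas the authors' neural crest classes hold 24.6 CPM of Lamb1.

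Fibrillar collagens form the banded fibres of connective tissue. Of 11 tested, 4 rose at day 7 (36.4%, against 3.99% of all genes called), 2 rose and 1 fell at day 8 (27.3% against 13.4%) and 4 rose at day 10 (36.4% against 26.4%). Those called at day 7 (Col2a1, Col1a2, Col5a1 and Col11a1) had their highest level in that library, and those called at day 10 were Col11a1, Col5a2, Col5a3 and Col3a1. The day 7 calls were all lost when cells of both tables were held to the same range of detected genes and mitochondrial share. Col2a1, the cartilage collagen that early neuroepithelium also transcribes, was at 15.3 CPM in non-elongated organoids, 29.2 and 24.4 CPM in the elongated day 6 duplicates, 67.5 CPM at day 7, 29.5 CPM at day 8 and 20.8 CPM at day 10. It rose at day 7 by 1.33 (SE 0.27, edgeR adjusted p = 0.0381) and was near the day 6 values again at day 8. Its highest class levels were 129 CPM in migratory crest at day 10 and 82.1 CPM in the pre-EMT cranial class at day 7. Col1a2, a chain of collagen I, was at 1.33 CPM in non-elongated organoids, 2.89 and 2.36 CPM in the duplicates, 14.3 CPM at day 7, 0.824 CPM at day 8 and 1.10 CPM at day 10. It rose at day 7 by 2.45 (SE 0.37, edgeR adjusted p = 0.0148) and was below day 6 at day 8, where it fell by 1.67 (SE 0.43, adjusted p = 0.0414). At day 7 Col1a2 was at 16.3 CPM in mid/hindbrain, which held 1780 of its 1933 UMIs and most cells of that library (2108 of 2565), at 7.59 CPM in the pre-EMT cranial class and at 2.41 CPM in spinal cord. Col1a1, the partner chain, was at 1.73 CPM at day 7 and 2.08 and 0.856 CPM in the duplicates, and was not called. At day 10, by contrast, 41 of 110 Col1a2 UMIs lay in the 56 migratory crest cells.

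Col5a1, whose chain sets the width of collagen I fibrils, was at 5.20 CPM in non-elongated organoids, 5.35 and 5.58 CPM in the duplicates, 17.6 CPM at day 7, 10.5 CPM at day 8 and 9.94 CPM at day 10. The day 6 libraries lay together, and day 7 exceeded them by 1.68 (SE 0.31, edgeR adjusted p = 0.0304). Col11a1, of collagen XI, was at 1.82 CPM in non-elongated organoids, 4.07 and 4.42 CPM in the duplicates, 12.0 CPM at day 7, 10.5 CPM at day 8 and 10.5 CPM at day 10. It rose by 1.50 (SE 0.32), 1.31 (SE 0.32) and 1.31 (SE 0.32) at days 7, 8 and 10 (edgeR adjusted p = 0.0469, 0.0358 and 0.0230). In dorsal interneurons Col11a1 was at 4.15 to 8.69 CPM at day 10, against 12.4 CPM in mid/hindbrain. Among the minor fibrillar genes, Col5a3 rose at day 8 and day 10 by 2.97 and 2.51 (edgeR adjusted p = 0.0203 and 0.0243), with at most 118 UMIs in a library, and these calls were absent with DESeq2 (adjusted p = 0.167 and 0.200). Col5a2 rose at day 10 by 2.82 (SE 0.58, edgeR adjusted p = 0.0120), from 14 and 53 UMIs in the duplicates to 205. Col3a1 had 9, 7, 0, 11, 0 and 146 UMIs in the 6 libraries in order, and 145 of the 146 at day 10 lay in 6 cells of the pre-EMT cranial class, with 68 in a single cell. It was called higher at day 10 (edgeR adjusted p = 0.0215) and not with DESeq2 (adjusted p = 0.0887).

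Of the fibril-associated collagens, which coat or link fibrils, Col14a1 (chr15:55307750-55520803) had the largest rise of any member called at day 10 with at least 10 CPM. Its level was 0.866 CPM in non-elongated organoids, 0.301 and 0.191 CPM in the elongated day 6 duplicates, 1.85 CPM at day 7, 3.38 CPM at day 8 and 17.8 CPM at day 10. The differences from day 6 were 2.94 (SE 0.42), 3.81 (SE 0.42) and 6.21 (SE 0.45) at days 7, 8 and 10 (edgeR adjusted p = 0.0123, 0.00201 and 0.000209). The gene was concentrated in few cells. At day 10, 1464 of its 1783 UMIs lay in the 105 cells of the pre-EMT vagal/trunk class, and the class level was 484 CPM (Poisson interval 459 to 509). That class held 82.0 CPM at day 8, against 0.331 CPM in the pre-EMT cranial class of the same library. Spinal cord exceeded mid/hindbrain in 4 of 4 libraries, with 27.9 against 1.64 CPM at day 10. At day 6 most of the non-elongated UMIs (38 of 60) came from mesenchyme.

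Col22a1, known from tissue junctions, was at 1.76 CPM in non-elongated organoids, 1.34 and 1.92 CPM in the duplicates, 3.95 CPM at day 7, 4.89 CPM at day 8 and 5.94 CPM at day 10. It rose at day 8 and day 10 by 1.58 (SE 0.41) and 1.86 (SE 0.41) (edgeR adjusted p = 0.0423 and 0.0149), and its highest class level was again in pre-EMT vagal/trunk at day 10, at 36.7 CPM. Col9a3, a chain of collagen IX, was at 3.77 CPM in non-elongated organoids, 2.00 and 1.71 CPM in the duplicates, 1.50 CPM at day 7, 0.412 CPM at day 8 and 1.54 CPM at day 10. It fell at day 8 by 2.17 (SE 0.52, edgeR adjusted p = 0.0343). The day 10 level was highest in interneurons, at 4.34 CPM in class dI1. Col12a1, named after its values were seen and called in no comparison, was at 19.8 CPM in pre-EMT vagal/trunk and 19.6 CPM in spinal cord at day 10, against 0.383 CPM in mid/hindbrain.

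**Figure D4:**
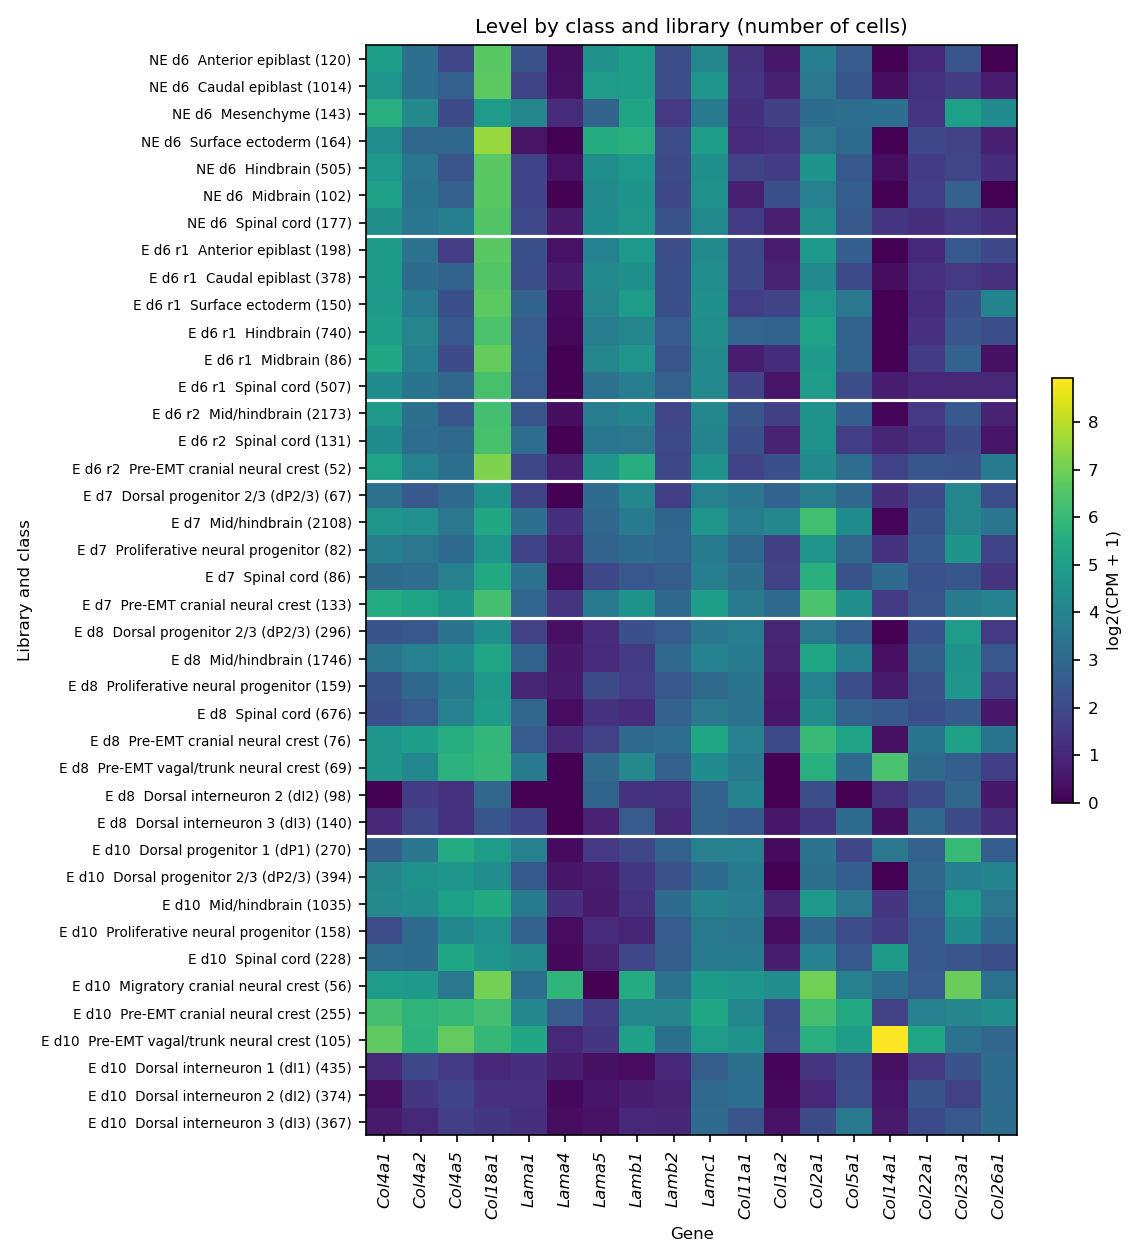
Levels of 18 members, ordered by role (columns), in the 40 pairs of class and library with at least 50 cells (rows, number of cells in brackets), coloured by log2(CPM + 1). NE and E stand for non-elongated and elongated, d for day and r for replicate. The brightest cell is Col14a1 in the pre-EMT vagal/trunk class at day 10 (484 CPM), and the rows of the 3 dorsal interneuron classes at day 10 are dark for Col4a1, Col18a1, Lama5 and Lamb1.

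Of 4 transmembrane collagens tested, 1 rose and 1 fell at day 10, when 14.1% of all genes were called higher and 12.3% lower. Col23a1 (chr11:51289920-51583918) was at 4.45 CPM in non-elongated organoids, 3.37 and 4.73 CPM in the duplicates, 14.6 CPM at day 7, 18.1 CPM at day 8 and 18.8 CPM at day 10. All later libraries lay above all day 6 ones, and the differences were 1.84 (SE 0.34), 2.15 (SE 0.34) and 2.21 (SE 0.34), with edgeR adjusted p = 0.0304, 0.00748 and 0.00403. Mid/hindbrain exceeded spinal cord in 4 of 4 libraries, with 29.5 against 4.13 CPM at day 10. The classes with the most at day 10 were migratory crest at 118 CPM and dorsal progenitor dP1 at 65.4 CPM. Col13a1 was at 4.26 CPM in non-elongated organoids, 1.85 and 0.609 CPM in the duplicates, 0.163 CPM at day 7, 0.168 CPM at day 8 and 0.0600 CPM (6 UMIs) at day 10. It fell at day 10 by 4.31 (SE 0.97, edgeR adjusted p = 0.0166), although the duplicates themselves differed by -1.57 on the log2 scale. In non-elongated organoids 119 of its 295 UMIs lay in the 143 mesenchyme cells, which also held 31.4 CPM of Col23a1.

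The remaining collagens gave calls at day 10 only, each near the threshold or at low counts. Col26a1 was at 2.01 CPM in non-elongated organoids, 3.44 and 1.13 CPM in the duplicates, 9.39 CPM at day 7, 3.16 CPM at day 8 and 8.86 CPM at day 10, with a rise at day 10 of 1.97 (SE 0.58, edgeR adjusted p = 0.0435). Col7a1, the anchoring fibril collagen of skin, was at 2.41 CPM in non-elongated organoids, 2.31 and 0.651 CPM in the duplicates, 1.02 CPM at day 7, 0.210 CPM at day 8 and 0.190 CPM at day 10. It fell at day 10 by 2.94 (SE 0.91, edgeR adjusted p = 0.0499), with duplicates that lay far apart. Col8a2 had 4, 2, 0, 8, 8 and 38 UMIs in the 6 libraries in order and was called higher at day 10 (edgeR adjusted p = 0.0278). The collagen VI genes Col6a1, Col6a2 and Col6a3 stayed between 0.137 and 0.967 CPM and were not called.

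In counts, 6 of 44 members were called at day 7, all higher (13.6%, against 3.99% of all 16379 genes tested, 1.9% higher and 2.09% lower). At day 8, 12 were called, 6 higher and 6 lower (27.3%, against 13.4% of all genes, 6.74% higher and 6.64% lower). At day 10, 17 were called, 12 higher and 5 lower (38.6%, against 26.4% of all genes, 14.1% higher and 12.3% lower). Calls are edgeR quasi-likelihood tests with a Benjamini-Hochberg adjusted p under 0.05. The day 7, day 8 and day 10 comparisons share their controls, the elongated day 6 duplicates, which are the only replicates and differ in batch and table. The p-values therefore measure only the spread between those samples, and a group of 1 library takes its spread from them. The median log2 difference over the 44 members was 0.26, 0.15 and 0.46 at days 7, 8 and 10, against -0.01, -0.00447 and -0.01 over all genes tested. None of the 6 calls at day 7 passed when cells of both tables were held to the same range of detected genes and mitochondrial share (adjusted p over the alternatives up to 0.0898). In that range 1.27% of all genes were called at day 7. With RLE scaling 9 members were called at day 7, 8 higher and 1 lower, against 5.42% of all genes.

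Over the 5 elongated libraries, 6 of 43 members had a slope that passed the test (23.8% of 15775 genes did, 11.3% higher and 12.5% lower). Col14a1, Col4a5 and Col4a6 rose, and Lama5, Col18a1 and Col13a1 fell. Leaving out elongated replicate 2 left 0 of 41 members called, and 0 of all genes, and leaving out replicate 1 left 3 (11.1% of all genes). DESeq2 called 11 slopes (38.1% of all genes). Within neural progenitors, 3 of 42 members were called at day 7, all higher (2.5% of 15789 genes, 1.34% higher and 1.17% lower), and DESeq2 called 6 (5.13% of genes). At day 8, 9 were called, 4 higher and 5 lower (9.57% of genes, 4.76% higher and 4.81% lower). At day 10, 15 were called, 10 higher and 5 lower (17.1% of genes, 8.85% higher and 8.24% lower). The median over the members in progenitors at day 10 was -0.03, although more were called higher than lower.

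**Figure D5:**
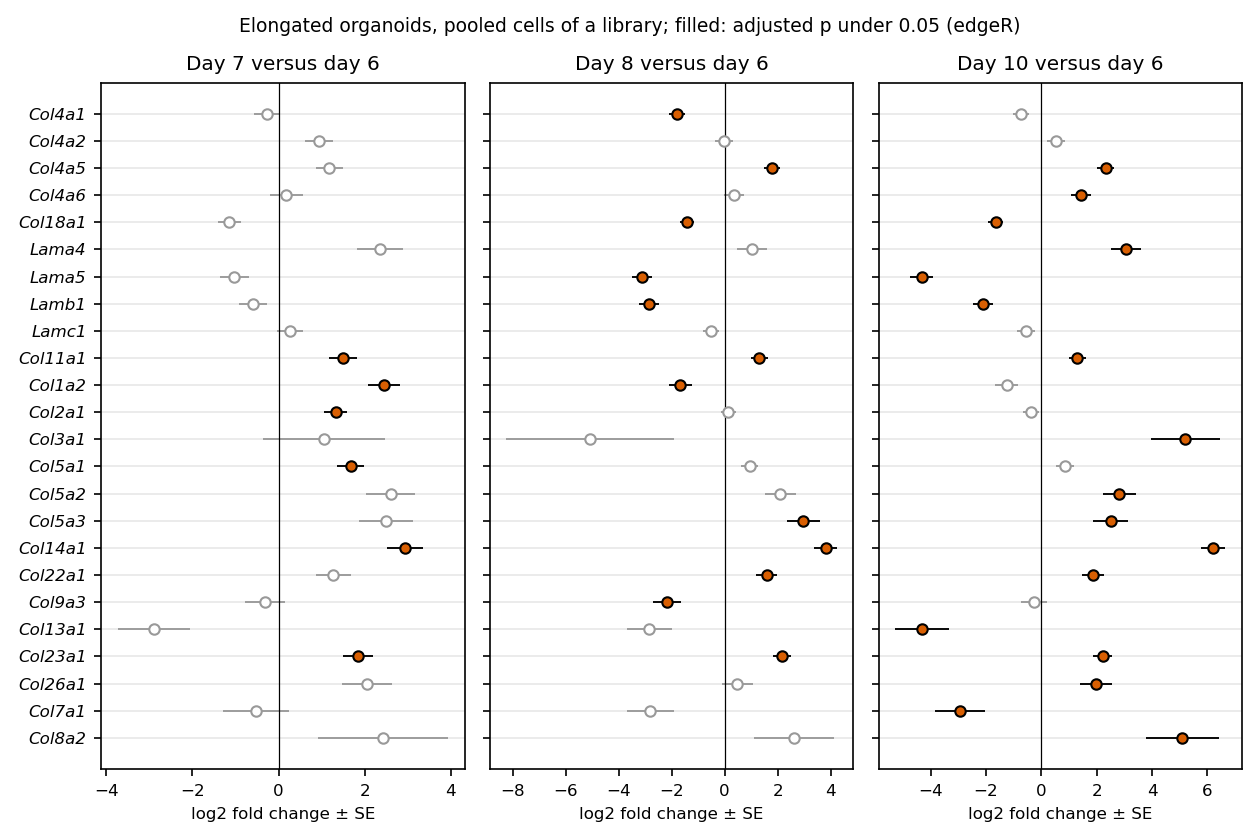
Log2 fold change against the elongated day 6 duplicates (horizontal axes, bars are SE) of the 24 named members at day 7, day 8 and day 10 over all cells. Filled points passed an edgeR adjusted p of 0.05. At day 7 all 6 filled points lie to the right, and at day 10 12 lie to the right and 5 to the left, with Col14a1 at 6.21 and Lama5 at -4.33.

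In the day 6 comparison of non-elongated with elongated organoids, edgeR called no member (0 of 44, lowest adjusted p = 0.345, against 0% of all genes). DESeq2 called 0 members too, and 127 of all genes (0.918% of those it tested). At an unadjusted p under 0.05, edgeR had 10 of 44 members (22.7%) and 1137 of 16379 genes (6.94%). The values are given for that reason without a call. Lama5 was higher in non-elongated organoids by 0.94 (SE 0.31, edgeR adjusted p = 0.552), by 0.92 against replicate 1 of the same table and 0.97 against replicate 2. Lamb1 differed by 0.82 (SE 0.31, adjusted p = 0.630), at 0.71 and 0.93 against each replicate. Lamb3, a beta chain of the laminin that anchors stratified epithelia, had 44 UMIs against 10 in replicate 1 and 18 in replicate 2 (edgeR adjusted p = 0.552) and was named after these values were seen. Col11a1, Col2a1 and Col1a2 were lower, by -1.22, -0.81 and -0.98 (edgeR adjusted p = 0.459, 0.595 and 0.706).

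Surface ectoderm markers summed to 942 CPM in the non-elongated library and to 265 and 135 CPM in the duplicates, over all 7 listed, and the part of this difference in the laminin values was not tested. The surface ectoderm class made up 7.37% of non-elongated and 7.23% of elongated replicate 1 cells. Epiblast classes made up 50.97% and 27.7%. Inside some single classes of the table Lama5 was also higher in non-elongated organoids than in elongated replicate 1. It was at 28.6 against 18.1 CPM in caudal epiblast, 20.7 against 12.6 CPM in hindbrain and 19.0 against 9.05 CPM in spinal cord. In surface ectoderm it was at 45.2 against 15.8 CPM. The Poisson intervals of these classes, which cover counting error only, did not overlap within the table. Anterior epiblast (120 and 198 cells) and midbrain (102 and 86 cells) also had enough cells in both libraries, and their values are not given here. Over the neural progenitor classes, with both elongated replicates, the test called none of 42 members (edgeR, 5 at an unadjusted p under 0.05, every adjusted p = 1). There Lama5 differed by 0.76 (SE 0.34) and Lamb1 by 0.76 (SE 0.33).

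Partner genes were counted by list. Of 24 tested enzymes and chaperones of collagen assembly, 0 were called at day 7 (3.99% of all genes were), 4 at day 8 (1 higher, 3 lower, 16.7% against 13.4% of all genes) and 7 at day 10 (3 higher, 4 lower, 29.2% against 26.4%). Both later shares lay near that of all genes. P4ha1, a subunit of the prolyl hydroxylase that stabilises the triple helix, went from 32.1 and 27.7 CPM in the duplicates to 7.62 CPM at day 8, where it fell by 1.97 (SE 0.34, edgeR adjusted p = 0.00975), and stood at 21.7 CPM at day 10. Colgalt1, which glycosylates collagen, fell at day 10 by 0.91 (SE 0.27, adjusted p = 0.0437). Serpinh1, the collagen chaperone HSP47, was at 299 CPM in non-elongated organoids, 301 and 215 CPM in the duplicates, and 217, 150 and 155 CPM at days 7, 8 and 10, and was not called.

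Of 14 basement membrane partners, 1 was called higher at day 7 (7.14%, against 3.99% of all genes), 2 lower at day 8 (14.3% against 13.4%) and 5 at day 10 (1 higher, 4 lower, 35.7% against 26.4%). Nid1, a nidogen that bridges laminin and collagen IV, was at 1.93 and 1.54 CPM in the duplicates, 11.6 CPM at day 7, 3.56 CPM at day 8 and 5.81 CPM at day 10. It rose at day 7 by 2.74 (SE 0.36, edgeR adjusted p = 0.0104) and at day 10 by 1.75 (SE 0.37, adjusted p = 0.0128). Nid2 (23.9 CPM at day 7), the perlecan gene Hspg2 (6.63 CPM) and Sparc (148 CPM) were not called. Frem2, of the Fraser complex under epithelia, fell at day 10 by 3.15 (SE 0.46, edgeR adjusted p = 0.00327), and Pxdn, which cross-links collagen IV, by 1.43 (SE 0.32, adjusted p = 0.0153).

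Of 18 receptors, 3 were called at day 7 (1 higher, 2 lower, 16.7% against 3.99% of all genes), 3 at day 8 (1 higher, 2 lower, 16.7% against 13.4%) and 7 at day 10 (3 higher, 4 lower, 38.9% against 26.4%). Itgb8, an integrin beta chain that pairs with alpha v, went from 6.86 and 7.01 CPM in the duplicates to 47.7 CPM at day 7, 69.4 CPM at day 8 and 41.1 CPM at day 10. Its rises were 2.78, 3.32 and 2.57 (SE 0.26 each, edgeR adjusted p = 0.00369, 0.000608 and 0.000709). The laminin receptor chain Itga6 fell at day 10 by 0.94 (SE 0.27, edgeR adjusted p = 0.0395). Ddr1, a collagen receptor kinase, rose at day 10 by 1.01 (SE 0.27, adjusted p = 0.0302). Itgb1 was at 71.4 and 84.2 CPM in the duplicates and 112 CPM at day 10, and Dag1 at 54.4 and 64.2 against 48.7 CPM, and neither was called. Bcam, a receptor of the laminin alpha 5 chain named after its values were seen, fell at days 7, 8 and 10 by 2.24, 2.67 and 2.49 (edgeR adjusted p = 0.0353, 0.00918 and 0.00720). Of 11 proteases and inhibitors, 0 were called at day 7, 4 at day 8 (2 higher, 2 lower, 36.4% against 13.4% of all genes) and 4 at day 10 (3 higher, 1 lower, 36.4% against 26.4%). Of these, Timp3 fell at day 8 by 1.59 (SE 0.41, edgeR adjusted p = 0.0418).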

How the data were processed

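RNA was measured with the 10x Genomics 3 prime kit. The submitters' processing notes name Cell Ranger 3.1 and mm10. Per the file headers the authors deposited UMI counts per gene and cell, and the deposited metadata give totals and detected genes as counts, the mitochondrial share in percent, and class and library names (other). How cells were filtered, doublets treated and classes assigned is not given in the sources used here, and no doublet caller was run. Column sums matched the deposited totals in all 16282 cells, and library pairs share 1 to 4 barcodes. In the table with both day 6 kinds, the library codes NENT and SENT were taken by first letter to mean non-elongated and elongated.

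Counts were summed per library over 17296 shared symbols and tested in R 4.3.3 with edgeR 4.0.16 (limma 3.58.1): TMM scaling, a filterByExpr minimum of 10 counts, and a quasi-likelihood fit with 5 group means (16379 genes, 1 residual degree of freedom, common dispersion 0.0872), adjusted by Benjamini-Hochberg over all genes. A fit of slope over day used the 5 elongated libraries (3 residual degrees of freedom). The test was repeated in neural progenitor classes. It was also run on simulated data with a lower dispersion than the fitted one and no difference between batches. That run therefore does not show how the test behaves at the spread of these data. The SE was obtained by dividing each log2 fold change by the root of its F statistic. Values against single replicates use log2 CPM with a prior count of 2. Class levels are CPM without TMM factors, for classes of at least 50 cells, with no test. Alternatives were RLE scaling, library size alone, no filter, a minimum count of 100, DESeq2 1.42.0 and cells of a shared range (3502 to 7498 genes, at most 7.49% mitochondrial).

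Members reaching 10 CPM in a library or called in a comparison are named with every library, except Col5a2 and Col5a3, whose values are given in part. Of each list of partner genes, up to 4 called genes with the largest change and at least 20 CPM are named, plus Nid1, Nid2, Hspg2, Sparc, Serpinh1, Itga6, Itgb1 and Dag1. The members and lists were chosen with earlier results of these data known. Notochord and floor plate markers summed to 2.50 to 23.2 CPM per library, muscle and heart markers to 0.270 to 20.8 CPM. Mesenchyme and early mesoderm markers summed to 25.6 to 127 CPM, neural crest markers to 40.5 to 302 CPM and neural progenitor markers to 270 to 3228 CPM. At day 10 Nog alone was at 20.9 CPM, with Foxa2 and T at 0 CPM. The neural crest sum at day 10, without TMM scaling, was 267 CPM in the authors' neural crest classes, 321 CPM in neural progenitors and 416 CPM in neurons. These 2 sums therefore do not measure notochord or crest content. Some values are not reported here.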

Additional observations from a re-analysis of the deposited data

Results flagged for a closer look

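Another 4 symbols that fit the naming rule (Lama2, Col6a6, Col6a4 and Col10a1) are listed only in the table of elongated replicate 2 and days 7 to 10, so no comparison used them. Of these, 3 had more UMIs in a later library than the 3 that a count of 0 allows and a higher level than in elongated day 6 replicate 2. Lama2, the alpha chain of muscle and nerve laminins, had 4, 18, 24 and 23 UMIs at days 6, 7, 8 and 10 and reached 0.256 CPM at day 10, without TMM scaling. Col10a1 had 6 UMIs at day 10 (0.0668 CPM) and 0 in the other libraries of that table. Col6a6 had 5 UMIs at day 10 (0.0557 CPM), 4 at day 8 and 0 at days 6 and 7. These levels were not tested.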

How the results depend on the processing

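No paired analysis was possible because only the elongated day 6 group carries replicate numbers. The count of members called at day 7 moved from 6 to 3 with a minimum count of 100, which tests only 32 members, and to 0 in cells of the shared range. For the slope it moved from 6 to 11 with DESeq2, and to between 0 and 3 when an elongated day 6 replicate was left out. Within neural progenitors the day 7 count moved from 3 to 6 with DESeq2. The other counts stayed within 1.5 times: 9 to 16 at day 8 and 14 to 18 at day 10, and 0 in the non-elongated comparison. At day 10, 12 of the 17 calls held under all 6 alternatives, and at day 8, 8 of 12 did. Calls lost elsewhere are those of Col26a1, Col7a1, Col8a2, Col3a1 and Col5a3 at day 10 and of Col22a1, Col11a1, Col1a2 and Col5a3 at day 8, with adjusted p up to 0.200. No called value changed sign under any alternative. Library size alone moved the median of all genes to 0.11, 0.13 and 0.24 at days 7, 8 and 10, and changes are relative to the TMM median. The cause of these shifts was not tested. Depth limits the 5 untested members, which had at most 10 UMIs in a library.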
